A study of Macaca mulatta with 12 samples.

Results

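The antibody-secreting cells (ASC) of blood were taken as the cells that the authors' deposited cell table names Antibody-secreting cells. There were 56 of them among 13849 cells, and they made up 0.799 ± 1.27% of B cells per animal (SD, n = 6), with cells annotated as contamination left out. The series profiled peripheral blood mononuclear cells of 6 healthy, unmanipulated juvenile rhesus macaques (Macaca mulatta) of Indian origin, aged 2 to 3 years. Each animal gave a gene expression library of polyA RNA and a B cell receptor (BCR) library made from it, which reads the heavy and light chain transcripts of single cells. Both males were labelled batch 1 and all 4 females batch 2, so sex and batch cannot be told apart. The ASC were set against the 8647 cells of the 6 memory subtypes (CD11c+ MBC 1 and 2, C-MBC 1 and 2, M-MBC 1 and 2) of the same animals.

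ASC are the end stage of B cell differentiation and comprise dividing plasmablasts and non-dividing plasma cells. In human and mouse, the transcription factors PRDM1 (Blimp-1), XBP1 and IRF4 shut down the B cell program and enlarge the endoplasmic reticulum, where antibody is folded and glycosylated before secretion. JCHAIN, the joining chain that links IgM and IgA into polymers, and MZB1, an endoplasmic reticulum cofactor of antibody assembly, are usual markers, and immunoglobulin transcripts are made in large excess. The gene roles given below are those known from human or mouse.

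The cells were unevenly spread over the animals. The ASC numbered 2 in male 1, 7 in male 2, 10 in female 1, 4 in female 2, 14 in female 3 and 19 in female 4. As shares of B cells these were 0.0721% in male 1, 0.261% in male 2, 0.375% in female 1, 0.251% in female 2, 0.459% in female 3 and 3.37% in female 4 (exact binomial 95% confidence interval 2.04 to 5.22% in female 4). Female 4 stood apart from the other 5 animals, whose intervals all end at or below 0.769%, and its 19 ASC came from a library with 563 B cells, against 1596 to 3048 in the others. All 56 cells carried the authors' doublet call Singlet, as did every other cell of the series, so the call does not set them apart. Of 193 cells whose barcode occurred in more than 1 expression library, 0 were ASC, which says little for 56 among 13849 cells. The authors' predicted cell type was Plasmablast for 53 of the 56 cells, and B naive, B intermediate and CD4 Proliferating for 1 each.

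Summed per animal, all 3 markers were higher in ASC than in memory cells of most animals, by less in female 4 for JCHAIN and MZB1. Many single cells held no UMI of them. Levels are UMI counts as CPM, scaled to an equal total over named genes that are not immunoglobulin genes, and summed over the cells of a class in an animal. JCHAIN stood at 3221 CPM in ASC of male 1, 14208 in male 2, 18884 in female 1, 11380.0 in female 2, 9204 in female 3 and 399 in female 4, against 26.0 to 161 CPM in memory cells of the 6 animals. MZB1 stood at 248, 1608, 6089, 1709, 3237 and 258 CPM in ASC of the same animals in that order, against 12.1 to 84.9 CPM in memory cells. PRDM1 was at 0 in the 2 cells of male 1 and at 262, 397, 90.0, 647 and 281 CPM in ASC of the other 5 animals, against 6.56 to 26.0 CPM in memory cells. ASC and memory cells did not overlap for JCHAIN or MZB1 over the 6 animals, while for PRDM1 male 1 alone fell below the memory cells. Counted by cell, 31 of 56 ASC held a JCHAIN UMI, 33 an MZB1 UMI and 29 a PRDM1 UMI, against 915, 1381 and 488 of the 8647 memory cells. A JCHAIN UMI was found in 4 of 14 ASC of female 3 and 7 of 19 of female 4, so the sum of female 3 rests on few cells. The deposited names carry cluster numbers, so the cells were taken as clustered on these genes, and the expression differences describe the cluster and carry no p-value.

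**Figure D1:**
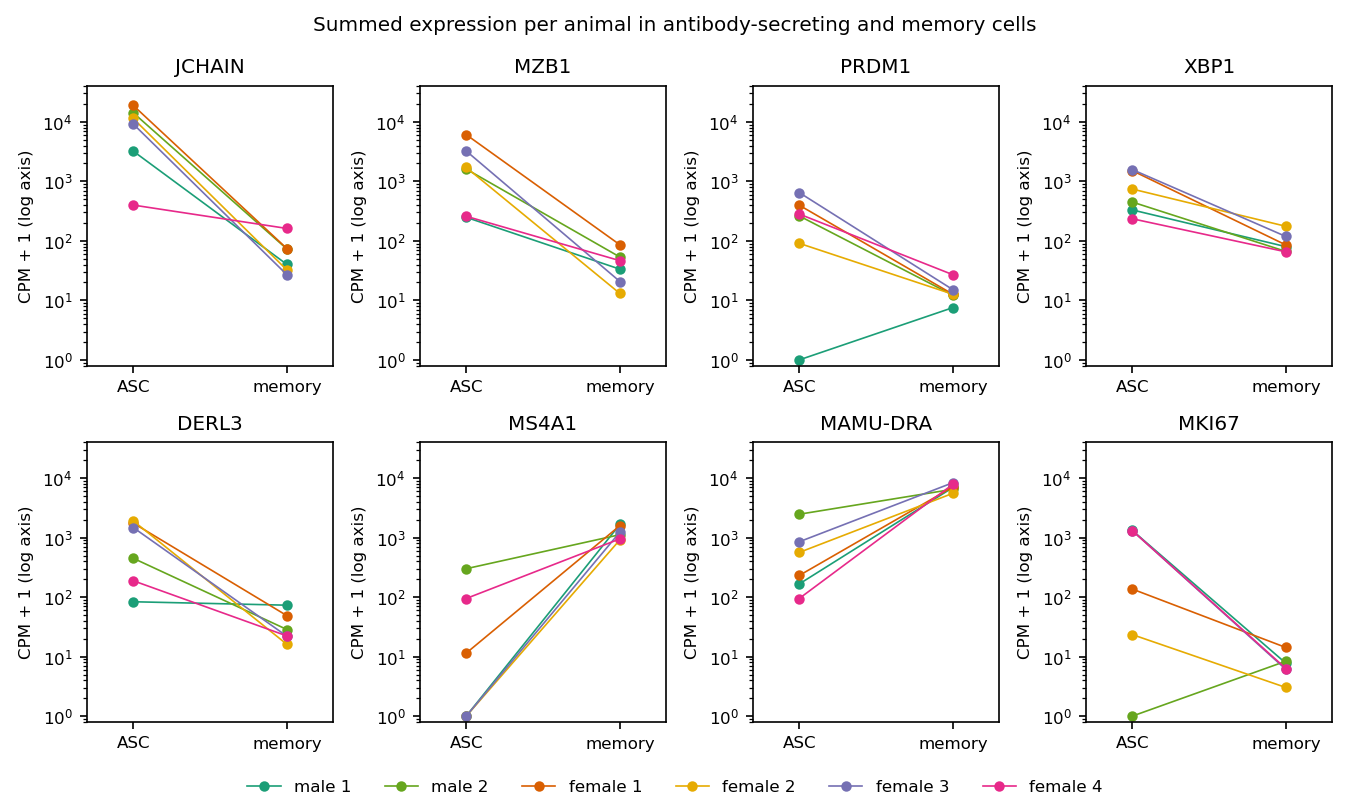
Summed level of 8 genes in ASC and in memory cells of each animal, as CPM plus 1 on a log axis, with a line joining the 2 classes of an animal. JCHAIN is higher in ASC of every animal and closest to memory in female 4 (399 against 161 CPM), and MAMU-DRA is lower in ASC of every animal.

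JCHAIN UMIs per cell split the cells, and the split followed the animals. There were 22 cells with 5 or more JCHAIN UMIs and 34 with fewer than 5, a division chosen after the values were seen; the cells nearest to it held 6, 9 and 11 UMIs above and 2, 1 and 1 below. Cells with 5 or more numbered 2 of 2 in male 1, 3 of 7 in male 2, 10 of 10 in female 1, 3 of 4 in female 2, 3 of 14 in female 3 and 1 of 19 in female 4. So 29 of the 34 cells with few JCHAIN UMIs came from females 3 and 4. Cells of the JCHAIN-rich group held a median of 14878.5 UMIs and those of the JCHAIN-poor group 3625.5 UMIs, and ribosomal protein genes took a median of 6.88% and 1.55% of UMIs in these groups. The counts over gene lists are therefore also given without females 3 and 4 and within the JCHAIN groups.

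In all, ASC held between 531 and 39732 UMIs. Their median was 12170.0 UMIs in male 1, 5876 in male 2, 19801 in female 1, 16908.5 in female 2, 3966.5 in female 3 and 3696 in female 4, against 4027.5 to 6973 in memory cells of the 6 animals. The order among animals was wide enough that the log2 ratio to memory cells averaged 0.38 ± 1.10 (SD, n = 5 animals with 3 or more ASC) and was above 0 in 3 of 5. A larger part of ASC RNA went to transcripts without a gene name or named as immunoglobulin, 45.1 ± 12.5% in ASC and 12.9 ± 1.57% in memory cells (mean of animal medians ± SD, n = 5), higher in 5 of 5. Ribosomal protein RNA was 6.95 ± 6.19% of UMIs in ASC and 15.7 ± 1.68% in memory cells, lower in 4 of 5. Female 2 was the exception, with a median of 15.1% in its 4 ASC and 14.7% in its memory cells, and female 3 (1.47%) and female 4 (1.54%) lay lowest. At an equal depth of 1000 UMIs per cell, which left out 1 ASC and 9 memory cells, ASC showed fewer distinct genes, 434 ± 71.1 in ASC and 610 ± 21.8 in memory cells, lower in 5 of 5. Without thinning, depth differs between the classes, as the UMI medians show. The 1000 UMIs and the ribosomal percent were taken over all transcripts, including the unnamed and immunoglobulin ones that took more of ASC RNA. The part of this in either difference was not tested. Scaled to named genes, 16 ribosomal protein genes summed to 41740 CPM in JCHAIN-rich, 35931 CPM in JCHAIN-poor and 46025 CPM in memory cells. Mitochondrial RNA was 2.87 ± 0.871% in ASC and 2.24 ± 0.521% in memory cells, higher in 3 of 5.

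The JCHAIN-poor cells of females 3 and 4 were rich in histone RNA. Transcripts of replication-dependent histone genes, which are made during DNA synthesis, were summed over 52 named genes of families H1 to H4. A UMI of these genes was also found in 8324 of 8647 memory cells, and DNA synthesis itself was not measured. The JCHAIN-poor group held 20453 CPM of histone RNA and the JCHAIN-rich group 5376 CPM, against 1684 CPM in memory cells. Within the JCHAIN-poor group the level was 38565 CPM in female 3 and 24576 CPM in female 4, but 754 CPM in the 4 cells of male 2 and 857 CPM in the single cell of female 2. Within the JCHAIN-rich group it was 16313 CPM in the 3 cells of female 3, and 743 to 4683 CPM in the other 5 animals. Histone RNA per cell had a median of 22359 CPM in female 3 and 24829 CPM in female 4, against 1361 CPM in memory cells, whose 99th percentile was 5477 CPM. Above that percentile lay 11 of 14 ASC of female 3, 16 of 19 of female 4, 2 of 10 of female 1, 1 of 7 of male 2 and 0 of the 6 of male 1 and female 2. The low-ribosomal clusters of the same series did not share it, with 747 CPM of histone RNA in Naive B cells 2 and 617 CPM in Naive B cells 3. Few JCHAIN UMIs, low ribosomal RNA, low UMI counts and high histone RNA occurred together in the same libraries, and their part in one another was not tested.

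**Figure D2:**
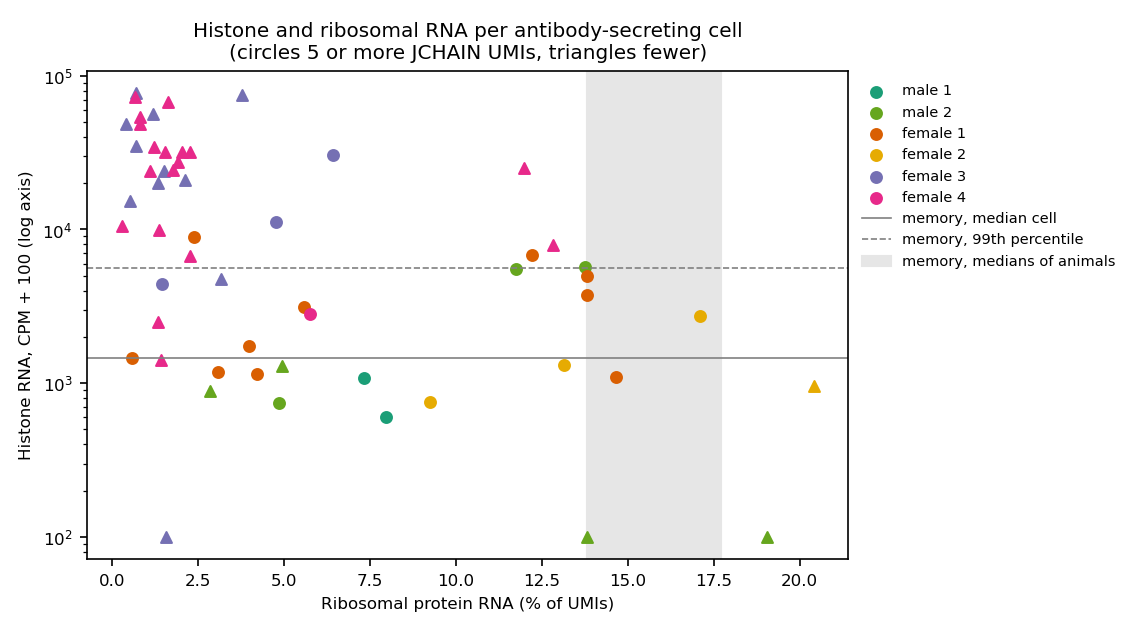
Histone RNA of each ASC (CPM plus 100, log axis) against the percent of its UMIs from ribosomal protein genes, coloured by animal, with circles for 5 or more JCHAIN UMIs and triangles for fewer. The grey band spans the 6 animals' memory medians of ribosomal RNA (13.8 to 17.7%), and most cells of females 3 and 4 lie at its far left and above the memory 99th percentile of histone RNA.

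For genes, UMIs were added up over the cells of each class in each animal and fitted with edgeR for the 3 animals with 10 or more ASC, females 1, 3 and 4, with animal as a block. A gene was counted as higher or lower where the fitted log2 difference, ASC over memory, was at least 1 in size and had the same direction in all 3 animals. Of 7655 genes that passed the filter on low counts, 817 (10.7%) were counted as higher and 1312 (17.1%) as lower, and the median log2 difference was -0.17. The TMM scaling moved all differences down: with library totals alone 1150 genes (15.0%) were higher and 1064 (13.9%) lower, and the median was 0.17. With unnamed and immunoglobulin genes kept in the library sizes the split was 520 higher and 1812 lower. A fit of the 4 animals other than females 3 and 4, which give 2 to 10 ASC each, counted 245 of 8877 genes (2.76%) as higher and 1665 (18.8%) as lower. Summed UMIs over named genes ran from 12108 to 95741 per animal in ASC and from 1692926 to 13166243 in memory cells, so ASC values carry most of the counting error. In these sums, a change in a few cells and a change in all cells cannot be told apart.

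Genes of antibody synthesis were higher along the secretory path. Of 13 measured genes of immunoglobulin assembly, 10 were counted as higher and 0 as lower (median log2 difference 2.73, against 10.7% of all genes higher and a median of -0.17). Beside JCHAIN (6.47 ± 1.22, SE) and MZB1 (5.31 ± 0.80) these included DERL3, a factor of endoplasmic reticulum degradation (4.67 ± 0.59), and PDIA4, a disulfide isomerase (3.90 ± 0.54). DERL3 stood at 82.6, 449, 1755, 1912, 1477 and 188 CPM in ASC of male 1, male 2 and females 1 to 4, against 15.1 to 72.2 CPM in memory cells. The ranges of DERL3 did not overlap, and male 1 and female 4 were lowest. Among translocon and signal peptide genes 7 of 18 were higher and 1 lower (median 1.48), led by RRBP1, a ribosome-binding protein of the rough endoplasmic reticulum (3.85 ± 0.48), and by SRPRB (2.60 ± 0.57) and SSR3 (2.53 ± 0.56). SSR4, a translocon subunit with a difference of 2.52 ± 0.69, was not counted, since female 4 held 188 CPM in its ASC and 228 CPM in its memory cells. Of N-glycosylation genes 4 of 15 were higher and 0 lower (median 0.97), among them STT3A, a catalytic subunit of the oligosaccharyl transferase (2.73 ± 0.49), and MAN1A1, a Golgi mannosidase (2.66 ± 0.49).

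The sensors and outlets of the secretory path followed the same direction. Of 17 measured genes of the unfolded protein response and of endoplasmic reticulum degradation, 10 were higher and 0 lower (median 1.72). ERN1, the stress sensor IRE1 that splices XBP1 mRNA, was at 82.6, 187, 1128, 877, 587 and 375 CPM in ASC of male 1, male 2 and females 1 to 4, against 12.1 to 19.3 CPM in memory cells. The ERN1 levels of the classes did not overlap in any animal, and the log2 difference was 4.86 ± 0.51 (SE). MANF, a secreted stress-response factor, differed by 3.27 ± 0.53 and DNAJB9, a cochaperone, by 2.48 ± 0.45. Of 18 genes of transport from the endoplasmic reticulum to the Golgi, 8 were higher and 0 lower (median 1.15), led by the cargo receptor LMAN1 (3.55 ± 0.49) and the vesicle coat subunit SEC24D (3.27 ± 0.50). Of 11 amino acid and serine supply genes 6 were higher and 0 lower (median 1.14), led by the glutamine transporter SLC1A5 (3.54 ± 0.54) and PHGDH, the first enzyme of serine synthesis (3.09 ± 0.70).

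The counts above stand against the 10.7% of all genes counted as higher in the 3 animals, and single animals moved both. Over all genes, 1232 of 7879 were higher and 1895 lower without female 1, and 1158 of 9971 were higher without female 4. Without female 1 the median of the glycosylation list was 0.12 with 3 of 15 higher and 1 lower, that of the transport list 0.39 with 5 of 18 higher and 1 lower, that of the translocon list 0.80 and that of the unfolded protein response list 0.96. Without female 4 there were 11 of 15 glycosylation genes, 12 of 19 transport genes, 14 of 18 translocon genes and 10 of 16 amino acid supply genes higher. With unnamed and immunoglobulin genes kept, 4 of 18 transport genes and 3 of 18 translocon genes were higher, against 520 of all 7905 genes.

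Without females 3 and 4, where 2.76% of all genes were higher, the assembly list had 12 of 13 genes higher, the translocon list 9 of 18, the glycosylation list 11 of 15, the unfolded protein response list 10 of 18, the transport list 8 of 19 and the amino acid supply list 2 of 14. In the JCHAIN-rich cells, fitted over male 2 and females 1 to 3, 12 of 13 assembly genes, 14 of 18 translocon genes, 10 of 15 glycosylation genes, 10 of 18 unfolded protein response genes and 11 of 19 transport genes were higher, against 3.83% of all genes tested. In the JCHAIN-poor cells, fitted over male 2 and females 3 and 4, the same lists gave 2 of 13, 0 of 18, 1 of 15, 1 of 17 and 1 of 18 higher, against 2.93% of all genes, and 1, 6, 6, 1 and 4 lower, against 21.8%. The JCHAIN-poor counts depended on the scaling, since the median over all genes was -0.83 with TMM and 0.21 with library totals. With library totals 2, 2, 1, 2 and 1 genes of these lists were higher in JCHAIN-poor cells, against 8.88% of all genes, and 0, 3, 4, 0 and 2 lower, against 17.7%. The assembly median in JCHAIN-poor cells was then 0.84, against -0.19 with TMM, and that of the unfolded protein response list 0.65, against -0.39. In the JCHAIN-rich cells library totals left 12 of 13 assembly and 14 of 18 translocon genes higher, against 6.02% of all genes. The groups were chosen by JCHAIN itself, a member of the assembly list, their fits share only male 2 and female 3, and the difference between them was not tested.

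**Figure D3:**
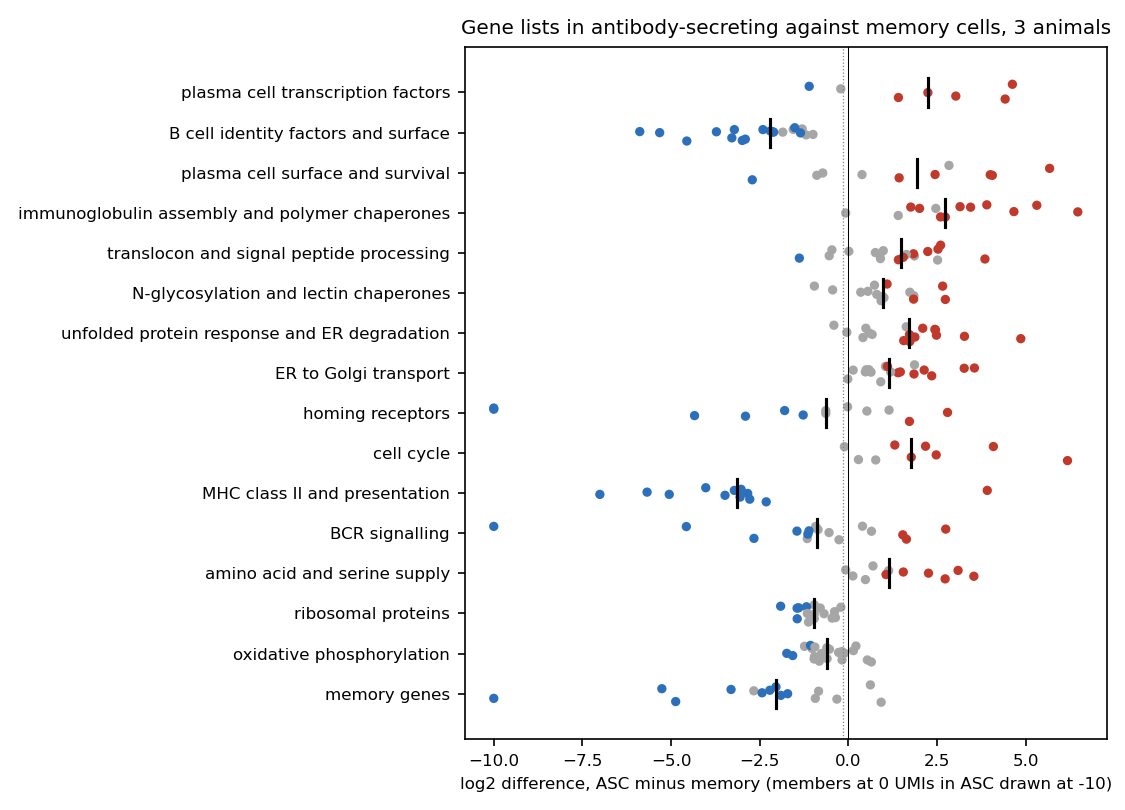
Fitted log2 difference, ASC minus memory, of each measured member of 16 gene lists in females 1, 3 and 4; red points were counted as higher, blue as lower, grey as neither, and the bar is the list median. The dotted line is the median of all genes (-0.17), and members with no UMI in these ASC (CXCR5, CCR6, CD72 and ANXA4) are drawn at the left edge, since their fitted size is no bound.

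Plasma cell transcription factors were higher in 5 of 7 and lower in 1 of 7 (median 2.24, against 10.7% and 17.1% of all genes). CREB3L2, a factor of secretory gene expression, differed by 4.63 ± 0.53, PRDM1 by 4.42 ± 0.48, XBP1 by 3.03 ± 0.54 and IRF4 by 2.24 ± 0.44. XBP1 stood at 330, 449, 1515, 742, 1578 and 234 CPM in ASC of male 1, male 2 and females 1 to 4, against 64.4 to 175 CPM in memory cells, above the memory range in every animal. IRF4 was 187 CPM in ASC of male 2 and 195 CPM in its memory cells, and higher in ASC of the other 5 animals. The factors differed in how they lay over the JCHAIN groups. PRDM1 and IRF4 had 349 and 514 CPM in the JCHAIN-rich cells and 327 and 627 CPM in the JCHAIN-poor cells, while XBP1 had 1346 against 261 CPM and CREB3L2 308 against 104 CPM. In the JCHAIN-poor cells 2 of 6 factors were higher and 1 lower, against 2.93% and 21.8% of all genes (median -0.48, or 0.58 with library totals). Without females 3 and 4 there were 3 of 7 higher, against 2.76% of all genes. Of 10 plasma cell surface and survival genes, 5 were higher and 1 lower (median 1.94, against 10.7% of all genes higher). The median was 0.98 without female 1 and -0.14 with all 6 animals, where 1 of 7 was higher, against 172 of all 7282 genes. There were 1 of 10 higher and 2 lower without females 3 and 4, against 2.76% and 18.8% of all genes. TNFRSF17, the survival receptor BCMA, was at 0, 187, 386, 202, 202 and 70.3 CPM in ASC in the same order of animals, against 2.16 to 5.91 CPM in memory cells. CD59, a complement inhibitor, differed by 4.06 ± 0.69, SLAMF7 by 4.00 ± 0.64, and CD38, a surface enzyme used to sort plasmablasts in human blood, by 1.43 ± 0.43. SDC1 (CD138) was found as 5 UMIs, all in male 2 and female 1, and in no memory cell.

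The B cell program was reduced in ASC. Of 19 genes of B cell identity, 0 were higher and 14 lower (median log2 difference -2.20, against 17.1% of all genes lower), and without females 3 and 4 there were 17 of 20 lower, against 18.8%. MS4A1 (CD20) was at 0 in ASC of male 1, female 2 and female 3, and at 299 CPM in male 2, 10.4 in female 1 and 93.8 in female 4, against 917 to 1666 CPM in memory cells. The MS4A1 ranges did not overlap, and 5 of 56 ASC held a UMI, against 8305 of 8647 memory cells. CD22, an inhibitory coreceptor, differed by -5.32 ± 0.89, CD83 by -4.56 ± 0.65 and the B cell factor PAX5 by -3.72 ± 0.72. Of 12 antigen presentation genes 11 were lower and 1 higher (median -3.13), and without females 3 and 4 there were 10 of 12 lower. MAMU-DRA, the macaque class II alpha chain, was at 165, 2468, 230, 562, 850 and 93.8 CPM in ASC in the order above, against 5552 to 8364 CPM in memory cells, again without overlap. MAMU-DMB, which loads peptide, differed by -5.68 ± 0.69, CD1C by -7.01 ± 0.86, and the class II transactivator CIITA by -3.22 ± 0.74. The member counted as higher, LGMN, encodes the protease legumain (3.92, named after its value was seen). BCR signalling genes were mixed, with 3 of 16 higher and 6 lower (median -0.89), against 10.7% and 17.1% of all genes. RASGRP3, a Ras activator, was higher by 2.75 ± 0.45, while the kinase LYN (-2.66 ± 0.56) and the adaptor PIK3AP1 (-4.57 ± 0.72) were lower.

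Several genes had no UMI at all in the ASC of females 1, 3 and 4 and are given as bounds, against 3 counts over these ASC (16.0 CPM). CXCR5, the receptor that leads B cells into follicles, was at least 26.9-fold lower in ASC, with 430 CPM in memory cells of these animals. FCRLA, an Fc receptor-like protein, was at least 26.8-fold lower, and had no UMI in any of the 56 ASC. ANXA4 was at least 18.6-fold lower, the kinase FGR at least 12.9-fold, ZNF331 at least 12.2-fold and LDB2 at least 11.5-fold. SIGLEC10, MAMU-F, CST7 and ALOX5AP were at least 6.06-fold to 11.1-fold lower. These 10 were named by their fitted size, which is no bound for a gene at 0, so their order against measured genes such as CD1C and MS4A1 is not known. In the remaining 3 animals FCRLA and LDB2 also had no UMI in ASC, and the other 8 genes had some. ANXA4 was at 150 CPM in ASC of male 2, against 156 CPM in its memory cells, and ALOX5AP at 74.8 CPM, against 35.7 CPM. MAMU-F was at 90.0 CPM in ASC of female 2, against 93.6 CPM in its memory cells. CST7 was at 248 CPM in ASC of male 1 and 135 CPM in ASC of female 2, against 69.3 and 51.4 CPM in their memory cells.

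Homing receptors were mixed, with 2 of 13 higher and 6 lower (median -0.64), against 10.7% and 17.1% of all genes. The median was 0.26 without females 3 and 4, with 3 of 14 higher and 4 lower, against 2.76% and 18.8% of all genes. ITGA4, the alpha-4 integrin chain, was at 578, 636, 1588, 832, 708 and 961 CPM in ASC of male 1, male 2 and females 1 to 4, against 37.7 to 152 CPM in memory cells, above them in every animal (chosen after its value was seen). The oxysterol receptor GPR183 (-4.34 ± 0.64) and the lymph node receptor CCR7 (-2.90 ± 0.89) were lower, and CCR6 was at least 2.16-fold lower. ITGB7, the partner chain for gut homing (-0.64 ± 0.50), and the chemokine receptor CXCR3 (1.15 ± 0.83) were not counted. CCR10, a receptor for mucosal epithelial chemokines, showed 6 UMIs, at 37.4 CPM in male 2 and 52.2 CPM in female 1 and 0 in the others, against at most 0.308 CPM in memory cells. Memory genes were lower in 9 of 15 and higher in 0 (median -2.04), and 9 of 15 were lower without females 3 and 4, against 18.8% of all genes. Among them were S100A4 (-5.26 ± 0.67) and the integrin chain ITGB2 (-4.87 ± 0.68).

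Cell cycle genes were higher in 6 of 9 measured and lower in 0 (median 1.77), against 10.7% of all genes higher. They were higher in 11 of 13 without female 1, against 1232 of all 7879 genes. MKI67, the proliferation antigen Ki-67, was at 1321, 0, 136, 22.5, 1315 and 1313 CPM in ASC of male 1, male 2 and females 1 to 4, against 2.03 to 13.2 CPM in memory cells. It was high in male 1 and females 3 and 4 and overlapped memory levels only in male 2, where no ASC held a UMI. TOP2A, the topoisomerase of dividing cells, followed, with 82.6, 0, 10.4, 0, 243 and 234 CPM in ASC in the same order, against 4.13 to 16.3 CPM in memory cells. RRM2, which makes deoxynucleotides, differed by 4.09 ± 0.72, and CENPF by 2.18 ± 0.47. H3C13, a histone H3 gene, had the largest difference of all ranked genes (8.20 ± 0.87), resting on 1942 CPM in ASC of female 3 and 1969 CPM in female 4, with 20.9 CPM in female 1 and 0 in the other 3 animals. Without females 3 and 4, 0 of 13 cell cycle genes were counted as higher, against 2.76% of all genes. That count asks for the same direction in all 4 animals, and MKI67 had no UMI in ASC of male 2. Within groups, summed cell cycle RNA was 3448 CPM in JCHAIN-poor and 1341 CPM in JCHAIN-rich cells, against 482 CPM in memory cells, and reached 5699 CPM in the 2 JCHAIN-rich cells of male 1.

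Among the other genes with the largest positive differences, ZBP1, ESR1 and FNDC3B were high in 5 or 6 animals, while CGA rested mainly on female 1. ZBP1, a sensor of Z-form nucleic acids, was at 0, 935, 668, 1012, 344 and 422 CPM in ASC of male 1, male 2 and females 1 to 4, against 3.56 to 7.68 CPM in memory cells (6.36 ± 0.52). ESR1, the estrogen receptor alpha, was at 165, 262, 679, 607, 142 and 117 CPM in ASC, against 2.73 to 7.70 CPM in memory cells (5.65 ± 0.58), above them in every animal of either sex. FNDC3B (5.59 ± 0.60) was likewise above memory in every animal, from 135 CPM in female 2 to 2235 CPM in female 1, against 14.9 to 21.0 CPM in memory cells. PDIA5, a disulfide isomerase, differed by 6.31 ± 0.69, the adaptor GAB1 by 6.23 ± 0.59 and CGA, the common alpha chain of glycoprotein hormones, by 5.66 ± 0.91. CGA had 31 UMIs in all, at 272 CPM in female 1 and at most 70.3 CPM in any other animal. Ribosomal protein genes were lower in 5 of 16 and higher in 0 (median -0.96), led by RPL30 (-1.91 ± 0.61), against 17.1% of all genes lower. The count was 12 of 16 lower without female 1, against 1895 of all 7879 genes. In the JCHAIN-poor cells alone 12 of 15 were lower, against 21.8% of all genes, or 8 with library totals, against 17.7%. The median in the JCHAIN-rich cells was -0.54, or 0.01 with library totals. Oxidative phosphorylation genes were lower in 3 of 21 and higher in 0 (median -0.61), against 17.1% of all genes lower. They were lower in 11 of 21 without female 1, against 1895 of all 7879 genes.

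Defining markers of myeloid, NK and plasmacytoid cells, apart from NKG7, were mostly at or near 0 in ASC, while the summed T cell and plasmacytoid markers reached higher than in memory cells. CLEC4C, CD14 and S100A8 had no UMI in 56 ASC, which allows up to 3 counts, and IL3RA, KLRD1 and NCR1 had 1 each. LYZ had 3 UMIs (11.1 CPM, against 54.6 CPM over memory cells), and LILRA4 was not among the genes listed. The NK marker NKG7 went the other way, with 21 UMIs in 3 of 56 ASC (77.4 CPM, against 15.4 CPM). All of them lay in male 1 and female 2, which are outside the fit. The summed level of 12 T cell markers ran from 209 to 774 CPM in ASC of the 6 animals and from 111 to 364 CPM in memory cells, with 0 of 6 measured members counted as higher and 1 as lower (median 0.39). The counts of this list and of those below stand against 10.7% of all genes higher and 17.1% lower, and rest on few measured members. CD3D, a chain of the T cell receptor complex, was at 122 CPM over all ASC and 32.3 CPM over memory cells, and CD3E at 62.7 and 17.8 CPM, with a CD3D UMI in 10 of 56 ASC and 933 of 8647 memory cells. Their part in the other differences was not tested. The 8 NK cell markers summed to 0 to 1349 CPM in ASC and 12.2 to 191 CPM in memory cells, with 2 of 2 measured members lower (median -6.68, or -1.82 with NKG7 at its bound). The highest NK sum came from female 2, where 1 cell held 68 GZMB, 32 GNLY and 16 NKG7 UMIs, 0 JCHAIN UMIs, and an IgG heavy chain with 880 UMIs. Plasmacytoid dendritic cell markers (9 listed) summed to 303 to 1934 CPM in ASC and 283 to 664 CPM in memory cells, with 1 of 5 measured lower and 0 higher (median -1.42), and without GZMB their highest member in ASC was TCF4, at 165 to 283 CPM, level with IRF7 in female 2. Both cells of male 1 also held GZMB, with 5 and 9 UMIs. Monocyte and myeloid markers summed to 0 to 247 CPM in ASC and 184 to 347 CPM in memory cells, with 3 of 3 lower (median -4.02). Platelet and red cell markers summed to 0 to 182 CPM in ASC and 21.9 to 399 CPM in memory cells, with 2 of 3 lower (median -1.24). Free RNA in droplets can give such low counts in any cell, and its part was not tested.

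Unnamed identifiers carried much of the ASC RNA, and none of the 5813 could be matched to a symbol. Both identifiers below were chosen after their values were seen. ENSMMUG00000002764 stood at 18953 CPM in JCHAIN-rich and 21812 CPM in JCHAIN-poor cells, against 73.6 CPM in memory cells (relative to named UMIs). Its level per cell differed by the class read in the BCR library. All 15 cells with an IgA heavy chain held 29 to 687 UMIs of it (median 111), while the 10 IgG cells held at most 7, the 5 IgM cells at most 2 and the 2 IgE cells 0. Among the 24 ASC with no assigned class, 7 cells held 29 or more UMIs, up to 1305. ENSMMUG00000044861 stood at 19246 CPM in JCHAIN-rich and 405 CPM in JCHAIN-poor cells, against 81.6 CPM in memory cells. The JCHAIN-rich level leaned heavily on 1 IgG cell with 2567 UMIs. Medians per cell were 1 UMI in IgA, 4.5 in IgG, 10 in IgM and 39.5 in IgE cells.

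The BCR library was sequenced apart from the expression library but made from the same RNA, and immunoglobulin RNA may have entered the clustering, so its measures are not fully independent of how the cells were chosen. They were tested over the 5 animals with 3 or more ASC that gave a value. The exact two-sided sign-flip permutation test cannot go below p = 0.0625 with 5 animals, and 8 measures were adjusted by Benjamini-Hochberg, so 0 could pass 0.05. A productive heavy chain was found in 32 of 56 ASC and a light chain in 36. Intervals on shares of cells cover counting error only. Cells with any contig made up 80.5 ± 21.4% of ASC and 94.9 ± 2.97% of memory cells (SD, n = 5; exact permutation p = 0.375, adjusted 0.583). The share was lowest in female 3 (64.3%) and female 4 (52.6%), and 100% of ASC in females 1 and 2.

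Heavy chain transcripts per cell reached levels in ASC that memory cells did not. The median heavy chain contig UMI count was 239.5 in ASC of male 2, 1796 in female 1, 880 in female 2, 18 in female 3 and 9 in female 4, against 8, 16, 5, 12 and 10 in memory cells of the same animals. ASC were higher in 4 of 5 animals, by far in the first 3, while female 4 lay below its memory cells. The mean log2 ratio was 3.92 ± 3.52 (SD, n = 5; exact permutation p = 0.125, adjusted 0.333), and 6.39 without females 3 and 4 (n = 3, where the exact p cannot go below 0.25). By cell, 9 of 32 ASC held 1000 or more heavy chain UMIs, against 0 of 6900 memory cells, and 13 against 7 held 100 or more. The 17 JCHAIN-rich cells with a heavy chain spanned 18 to 12304 UMIs (median 1203) and the 15 JCHAIN-poor cells 5 to 880 (median 12). The largest count, 12304, was in an IgG cell of female 3, an animal whose median was 18. Light chain medians were 37, 3533.5, 1522.5, 10 and 7.5 in ASC of male 2 and females 1 to 4, against 23, 41, 15, 31 and 33 in memory cells. They were higher in 3 of 5 animals and lower in females 3 and 4 (mean log2 ratio 2.00 ± 4.28; exact permutation p = 0.4375, adjusted 0.583), and the mean ratio was 4.59 without females 3 and 4.

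**Figure D4:**
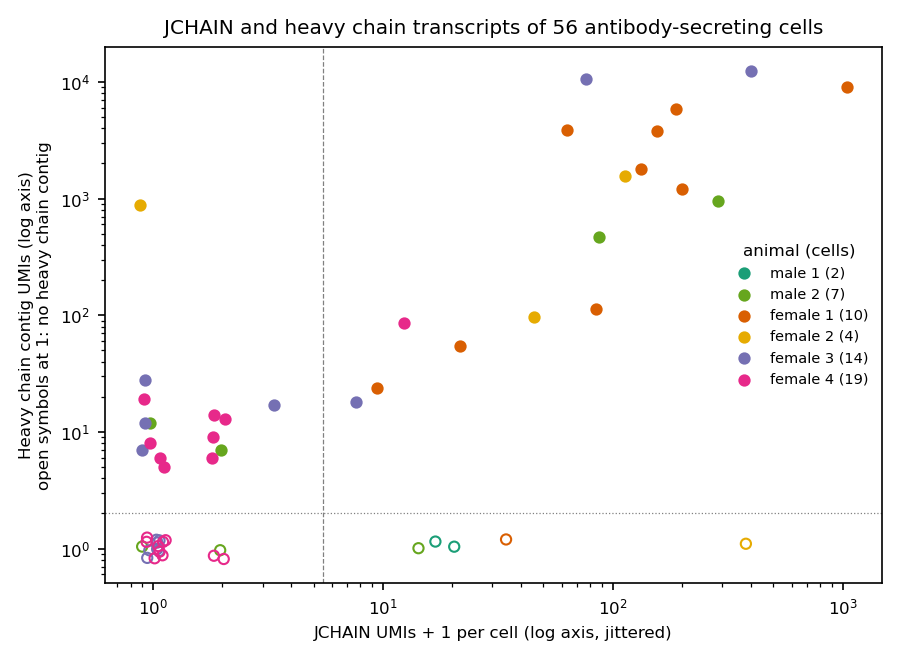
JCHAIN UMIs (plus 1, log axis, jittered) of each of 56 ASC against the UMIs of its heavy chain contig (log axis), coloured by animal, with open symbols for cells without one; the dashed line separates cells with 5 or more JCHAIN UMIs. All 9 cells with 1000 or more heavy chain UMIs lie right of it, and the upper left cell, with 880, is the GZMB-bearing cell of female 2.

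ASC were mostly class-switched. Of 32 cells with a known class, 15 were IgA, 10 IgG (9 by IGHG1, 1 by IGHG2), 5 IgM and 2 IgE. The switched share was 50.0% of ASC in male 2, 77.8% in female 1, 100% in female 2, 100% in female 3 and 88.9% in female 4, against 21.3, 31.8, 34.3, 45.9 and 65.1% of memory cells in the same animals. It was higher in ASC of 5 of 5 animals, by 43.7 ± 17.5 percentage points (SD; exact permutation p = 0.0625, the smallest possible, adjusted 0.333). Set against C-MBC 1 and C-MBC 2 alone, the difference was 3.82 points (exact permutation p = 0.5, adjusted 0.8). The mean switched share over animals was 83.3 ± 20.8% in ASC (SD, n = 5), 78.5 ± 11.5% in C-MBC 1 and 80.3 ± 6.27% in C-MBC 2 (n = 6 each). IgA, the antibody of mucosal surfaces, made up 25.0% of ASC in male 2, 44.4% in female 1, 0% in female 2, 57.1% in female 3 and 66.7% in female 4, against 2.04, 2.02, 0.732, 1.35 and 6.11% of memory cells. It was higher in 4 of 5 animals, by 36.2 ± 25.3 points on average (exact permutation p = 0.125, adjusted 0.333), by 21.6 points without females 3 and 4, and by 29.3 points against C-MBC 1 and C-MBC 2 alone. Pooled over animals, IgA cells were 46.9% of ASC (15 of 32, exact binomial interval 29.1 to 65.3%) and 1.82% of memory cells (121 of 6633). The mean IgA share over animals was 38.7 ± 26.6% in ASC (SD, n = 5) and 26.9 ± 3.10% in C-MBC 2 (n = 6), the memory subtype with the most IgA, and these overlapped between animals. Classes differed by JCHAIN group, with 4 IgA, 8 IgG, 3 IgM and 2 IgE cells among JCHAIN-rich and 11 IgA, 2 IgG, 2 IgM and 0 IgE among JCHAIN-poor cells. All 4 JCHAIN-rich IgA cells came from female 1. Of the JCHAIN-poor IgA cells 6 came from female 4, 4 from female 3 and 1 from male 2, so JCHAIN group and animal cannot be told apart. Both IgE cells came from female 2, where they were 2 of 3 cells with a class.

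**Figure D5:**
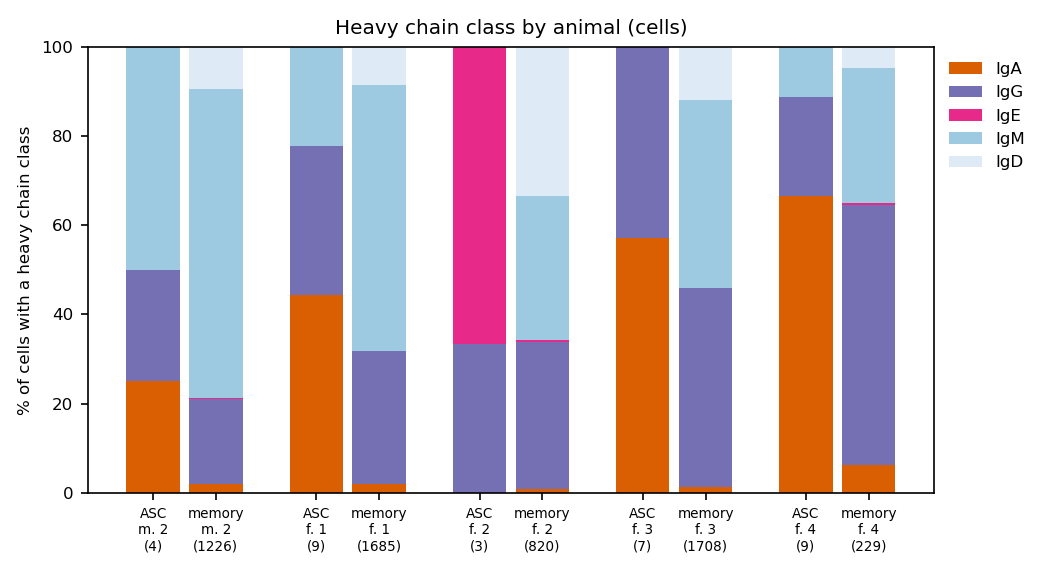
Heavy chain classes as a percent of the cells with a class, in ASC and memory cells of male 2 (m. 2) and females 1 to 4 (f. 1 to f. 4), with the number of cells under each bar. The switched classes IgA, IgG and IgE together fill a larger part of the ASC bar in each of the 5 animals, and IgA is absent from the ASC bar of female 2.

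Heavy chain V genes of ASC carried more differences from unmutated sequence than those of all memory cells together. They were close to those of C-MBC 1 and C-MBC 2 in the same 3 animals. Somatic hypermutation was estimated as the differences per 100 bases from the nearest sequence of the same animal, IGHV gene and length that 3 or more unswitched cells with different CDR3s shared. The mean was 4.32 in ASC of male 2, 5.30 in female 1 and 5.24 in female 3, against 1.91, 2.35 and 2.36 in memory cells. ASC were higher in 3 of 3 animals, by 2.75 ± 0.296 (SD; exact permutation p = 0.25, the smallest 3 animals allow, adjusted 0.5). Set against C-MBC 1 and C-MBC 2 alone, the difference was 0.0978 (exact permutation p = 0.75, adjusted 0.929). Means over animals were 4.96 ± 0.552 in ASC (SD, n = 3), 5.33 ± 1.17 in C-MBC 1, 5.51 ± 1.22 in C-MBC 2 and 4.78 ± 1.55 in CD11c+ MBC 2 (n = 6 each). These means cover unlike sets of animals. Among switched cells only, the difference was 0.859 in 2 animals, where the exact p cannot go below 0.5. Female 2 and female 4, with 2 such ASC each, had means of 8.42 and 6.84, against 2.87 and 4.49 in memory cells. The most divergent ASC of each class shows how the differences lie. The stretch from CDR1 through CDR2 is given for the ASC and for its animal's shared sequence, with differing bases in capitals. The IgA cell (IGHV3-16, female 3) differed at 32 of 291 bases over the V gene and at 11 of 102 in the stretch, and the IgG cell (IGHV4S17, female 1) at 32 of 288 and 15 of 99. The IgE cell (IGHV3-136, female 2) differed at 26 of 285 bases over the V gene and at 15 of 96 in the stretch, and the IgM cell (IGHV4S34, female 1) at 16 of 285 and 5 of 96.
IgA ASC, female 3: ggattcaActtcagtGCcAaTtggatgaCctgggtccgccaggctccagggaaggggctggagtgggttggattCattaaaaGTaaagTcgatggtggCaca
shared IGHV3-16, female 3: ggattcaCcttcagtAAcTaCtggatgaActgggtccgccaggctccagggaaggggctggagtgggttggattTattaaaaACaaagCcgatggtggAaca
IgG ASC, female 1: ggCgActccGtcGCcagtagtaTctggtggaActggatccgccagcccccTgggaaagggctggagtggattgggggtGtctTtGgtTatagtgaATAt
shared IGHV4S17, female 1: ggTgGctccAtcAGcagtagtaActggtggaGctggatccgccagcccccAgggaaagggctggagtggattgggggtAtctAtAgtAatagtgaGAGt
IgE ASC, female 2: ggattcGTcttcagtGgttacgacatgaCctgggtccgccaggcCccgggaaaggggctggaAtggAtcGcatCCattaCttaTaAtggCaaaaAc
shared IGHV3-136, female 2: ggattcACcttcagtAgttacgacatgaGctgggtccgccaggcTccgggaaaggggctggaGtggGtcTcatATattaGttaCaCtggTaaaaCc
IgM ASC, female 1: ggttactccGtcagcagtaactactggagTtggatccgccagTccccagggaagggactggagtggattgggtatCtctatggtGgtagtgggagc
shared IGHV4S34, female 1: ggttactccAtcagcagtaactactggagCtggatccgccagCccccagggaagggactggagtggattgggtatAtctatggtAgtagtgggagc

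A few ASC had relatives among memory cells. A relative was a cell of the same animal with the same IGHV and IGHJ genes and a CDR3 of the same length. With identical CDR3 nucleotides 1 of 32 ASC had one (3.13%, exact binomial interval 0.0791 to 16.2%), against 2.97% of 6738 memory cells. At 85% identity or more there were 4 of 32 (12.5%, interval 3.51 to 29.0%), against 6.71% of memory cells. These shares pool cells of animals that weigh differently in the 2 classes, and the difference was not tested. Female 4, for example, gave 9 of the 32 ASC and 232 of the 6738 memory cells. All 4 ASC were JCHAIN-rich, and their relatives held 0 or 1 JCHAIN UMIs. The 2 IgM ASC with relatives matched cells of M-MBC 2, an IgM memory subtype. In female 1, the IgM ASC (IGHV3-28, 8999 heavy chain UMIs) differed from an M-MBC 2 IgM cell (25 UMIs) at 3 of 57 CDR3 bases, and their light chain CDR3s (IGKV2-72) at 0. In male 2, an IgM ASC (IGHV4-92, 956 UMIs) matched 2 M-MBC 2 IgM cells with 1 and 3 differences in 57. In female 3, the IgG ASC with 12304 UMIs (IGHV7-193) differed at 2 of 39 bases from an IgG cell of C-MBC 1 with 12 UMIs. The CDR3s of these pairs are shown with differing bases in capitals.
ASC, IgM, female 1: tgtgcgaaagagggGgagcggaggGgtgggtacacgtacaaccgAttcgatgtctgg
M-MBC 2, IgM, female 1: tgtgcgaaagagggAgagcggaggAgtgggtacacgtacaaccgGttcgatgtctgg
ASC, IgM, male 2: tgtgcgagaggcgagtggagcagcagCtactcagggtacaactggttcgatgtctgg
M-MBC 2, IgM, male 2: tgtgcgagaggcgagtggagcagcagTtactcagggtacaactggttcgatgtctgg
ASC, IgG, female 3: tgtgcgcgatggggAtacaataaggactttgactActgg
C-MBC 1, IgG, female 3: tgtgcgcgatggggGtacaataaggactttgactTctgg
The pair with identical CDR3s did not share a light chain. The IgA ASC of female 1 (3787 heavy chain UMIs) shared its CDR3 with a CD11c+ MBC 2 cell whose heavy contig had 2 UMIs and no class, and their light chains used different V genes (IGLV3-34 and IGLV3-44).

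V gene families, CDR3 length and light chain type were close in ASC and memory cells. IGHV4 was used by 56.3% of the 32 ASC and 50.1% of memory cells, and IGHV3 by 28.1% and 32.8%. Heavy chain CDR3s averaged 16.1 ± 1.15 codons in ASC and 15.9 ± 0.241 in memory cells (exact permutation p = 0.6875, adjusted 0.786), with ASC longer in 3 of 5 animals. The difference of 0.16 ± 1.28 codons (SD) turned to -0.176 without male 2 and -0.126 without female 1. Kappa light chains made up 49.6 ± 13.3% of ASC and 49.0 ± 5.64% of memory cells (exact permutation p = 1.0, adjusted 1.0), and the difference of 0.602 percentage points turned to -5.24 without female 1.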

How the data were processed

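Blood mononuclear cells were captured with a 10x 5' kit, per the labels' protocols. The authors deposited counts, as 1 table of raw UMI counts, and BCR contig tables with UMI counts per contig. The deposited cell table held the authors' cluster names and percent of mitochondrial and ribosomal UMIs. Tools named, per the submitters' processing notes, were Seurat 5.0.1, Cell Ranger 9.0.1 and R 4.3.1. No genome build, gene annotation or V gene reference is given in the sources used here.

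Cells are not replicates, so counts were summed per animal and class. Unnamed identifiers (5813 of 22584 genes, 14.9% of UMIs) and 23 named immunoglobulin genes (0.186%) were left out of library sizes, since unnamed ones can include immunoglobulin genes. Sums were fitted with edgeR 4.0.16 (R 4.3.3, filterByExpr, TMM, quasi-likelihood) with animal as a block, since both classes come from the same animals, and the fit was tested on simulated data. Class, V gene, CDR3 and divergence used cells with exactly 1 productive heavy chain, and the kappa share those with exactly 1 productive light chain. Contig UMIs were those of the productive heavy or light chain with the most UMIs. The exact permutation tests listed every sign flip or split, and exact binomial intervals came from scipy 1.17.1. Levels in CPM are not per length, so genes are not compared with each other.

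The text names the 3 markers, the 10 largest differences in each direction with mean log2 CPM of 4 or more, up to 4 members of each of 21 gene lists, and 16 fixed genes, some of which are not reported here. The members and lists were chosen with earlier results of these data known. Alternatives were other scalings (library totals without TMM was added after seeing the data), no filter, DESeq2 1.42.0, other cell minimums and memory references, and leaving out each animal. Female 4 gave 563 B cells, so its shares are the least precise. Histone and MAMU genes have near-identical copies among which UMIs may have been divided, so their values are uncertain.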

Additional observations from a re-analysis of the deposited data

Results flagged for a closer look

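The share of ASC among B cells was 3.37% in female 4, 19 of 563 cells, against 0.0721 to 0.459% in the other 5 animals, and it was flagged because the gap to the next animal exceeded the critical value for 6 samples. Chance flags about 1 in 20 such groups, and 15 sets of animal values were examined. Of the 19 cells, 18 held fewer than 5 JCHAIN UMIs, their median ribosomal RNA was 1.54% of UMIs, and 9 had a heavy chain contig. The part of these measures in the share was not tested.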

How the results depend on the processing

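Animal is a block because both classes come from the same animals. Without the replicate block the counts were 832 genes higher and 1285 lower, against 817 and 1312 with it. For the BCR measures the paired test cannot pass 0.05, so its calls cannot show what the pairing changes. Unpaired exact permutation p-values were 0.0159 for the switched share, 0.0397 for heavy chain UMIs and 0.0476 for the IgA share, each 0.127 adjusted. The paired exact permutation p-values were 0.0625, 0.125 and 0.125 in that order, each 0.333 adjusted. The number of genes counted as higher moved to 520 with unnamed and immunoglobulin genes kept, 474 with animals of 5 or more ASC, 172 with all 6 animals, 245 without females 3 and 4, 347 in JCHAIN-rich and 208 in JCHAIN-poor cells, and with library totals to 370 without females 3 and 4; leaving out 1 animal gave 924 to 1232. The number counted as lower moved to 3207 with no filter (14370 genes tested), 671 with all 6 animals and 750 against Naive B cells 1; leaving out 1 animal gave 1648 to 2902, the highest without female 4. A rule that asks for the same direction in every animal is stricter with more animals. CDR3 length reversed to -0.378 codons among switched cells, and leaving out 1 animal gave -0.176 to 0.516, with -0.176 and -0.126 without male 2 and female 1. Kappa share reversed to -0.558 points among switched cells, and leaving out 1 animal gave -5.24 to 3.56, below 0 without female 1 (-5.24) and female 4 (-0.0815); the contig share reversed to 1.48 points without females 3 and 4. ASC with a relative numbered 4 at 85% CDR3 identity and 1 at 100%. Among named genes, fitted log2 differences reversed in JCHAIN-poor cells for JCHAIN (-0.14), SRPRB (-1.23), SSR3 (-0.29), CANX (-0.86) and MANF (-1.11); with library totals JCHAIN (0.71), SSR3 (0.67) and CANX (0.15) stayed above 0 there, as their summed CPM did, while SRPRB (-0.21) and MANF (-0.13) did not, and PF4 (0.054) and PPBP (0.60) reversed. The JCHAIN-poor cells were chosen for low JCHAIN. Without females 3 and 4 MCM4 (-0.038), NKG7 (2.65), GNLY (1.46) and CST3 (0.014) reversed, with all 6 animals NKG7 (1.54) and GNLY (0.34), and against Naive B cells 1 S100A10 (0.64). With library totals without females 3 and 4 CST7 (0.45), RPL23 (0.021), COX5A (0.14), NKG7 (3.07), GNLY (1.94) and CST3 (0.41) reversed, as did CST3 (0.44) in JCHAIN-rich cells. The cause was not tested. The other values for named genes stayed within 1 SD over animals in 1357 cases and moved beyond it in 438. With 56 cells in all and 5 animals per BCR test, depth and number limit every comparison, and no adjusted p could reach 0.05.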
